A study of Mus musculus with 2 samples.

Results

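Within the liver cells sorted as CD122+CD49a+, 132 of the 1248 cells that passed quality filters (10.6%, 95% interval 8.93 to 12.4) were lymphocytes with transcripts of the signalling adaptors Tyrobp or Fcer1g, and the whole series held 4313 such filtered cells. They were chosen by counts of unique molecular identifiers (UMIs), each standing for 1 captured transcript. A cell had at least 1 UMI over Tyrobp and Fcer1g, at least 3 UMIs over the cytotoxic lymphocyte genes Nkg7, Il2rb, Ccl5, Gzmb, Ctsw, Klrd1, Xcl1 and Ncr1, and 0 UMIs over the phagocyte genes H2-Ab1, H2-Aa, Csf1r and Cd209a. They are called Tyrobp/Fcer1g lymphocytes here. A CD3 transcript, a UMI of Cd3d, Cd3e or Cd3g, was seen in 117 of them and not in 15. Both are compared with 414 matched lymphocytes that met the same cytotoxic minimum and phagocyte limit, had a CD3 transcript and had 0 UMIs of both adaptors. The study profiled CD45+ liver cells of C57BL/6 mice aged 7 to 10 weeks by droplet single-cell RNA sequencing. CD122 is the interleukin-2 receptor beta chain and CD49a the integrin alpha chain encoded by Itga1, and cells with both were sorted from a lineage-negative gate. A second sort, LSM, was also lineage-negative and selected on Sca-1 and Mac-1. Each sort gave 1 library, the sources used here do not say from how many mice, and no test across samples was possible.

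Tyrobp encodes DAP12 and Fcer1g encodes the common Fc receptor gamma chain. Both are small membrane adaptors whose cytoplasmic ITAM motif carries the signal of receptors that have none of their own, and both are textbook components of natural killer (NK) cells, type 1 innate lymphoid cells (ILC1) and myeloid cells. The Ly49 receptors (Klra genes) and the NKG2 receptors (Klrc, Klrk1, Klrd1) are lectin-like receptors that read MHC class I or stress ligands on other cells. The activating Ly49 receptors signal through DAP12, and the inhibitory ones do not need it. In most T cells, receptor signals pass instead through the CD3 chains and the linker protein Lat.

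Because the Ly49 genes carry the largest difference reported below, the start regions of the 4 of them that lead the comparison are shown, with that of Fcer1g. Each is 250 bases before and 50 after the transcription start, 5′ to 3′ on the gene's own strand, from RefSeq on GRCm38.p6. Capitals mark RUNX letters (TGTGGT or ACCACA), T-box letters (TCACAC or GTGTGA) and ETS letters (AGGAAG or CTTCCT), 3 kinds of motif bound by lymphocyte transcription factors.
Fcer1g (chr1:171234300-171234599, minus strand): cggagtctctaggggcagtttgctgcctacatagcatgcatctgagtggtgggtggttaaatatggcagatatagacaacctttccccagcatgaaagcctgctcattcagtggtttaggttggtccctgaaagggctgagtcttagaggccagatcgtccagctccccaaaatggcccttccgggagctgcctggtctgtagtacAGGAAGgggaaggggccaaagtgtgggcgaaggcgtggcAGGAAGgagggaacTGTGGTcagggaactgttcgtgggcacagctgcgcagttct
Klra5 (chr6:129913175-129913474, minus strand): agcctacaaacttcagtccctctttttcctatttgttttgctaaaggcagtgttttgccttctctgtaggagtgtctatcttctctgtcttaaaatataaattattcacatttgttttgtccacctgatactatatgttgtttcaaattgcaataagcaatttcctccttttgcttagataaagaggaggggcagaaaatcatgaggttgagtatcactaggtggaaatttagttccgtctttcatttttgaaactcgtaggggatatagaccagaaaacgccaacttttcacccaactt
Klra7 (chr6:130231638-130231937, minus strand): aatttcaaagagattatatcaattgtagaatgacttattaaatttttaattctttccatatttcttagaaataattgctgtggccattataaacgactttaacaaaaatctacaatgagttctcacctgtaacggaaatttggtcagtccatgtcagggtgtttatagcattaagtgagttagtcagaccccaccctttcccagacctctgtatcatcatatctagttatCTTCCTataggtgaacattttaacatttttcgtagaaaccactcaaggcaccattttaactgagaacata
Klra3 (chr6:130337577-130337876, minus strand): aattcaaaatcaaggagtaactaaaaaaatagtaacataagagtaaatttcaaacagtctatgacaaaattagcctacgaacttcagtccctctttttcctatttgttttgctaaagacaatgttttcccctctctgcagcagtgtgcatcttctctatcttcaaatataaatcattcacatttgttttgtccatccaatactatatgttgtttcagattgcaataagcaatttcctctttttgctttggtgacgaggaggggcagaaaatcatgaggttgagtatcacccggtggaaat
Klra1 (chr6:130386825-130387124, minus strand): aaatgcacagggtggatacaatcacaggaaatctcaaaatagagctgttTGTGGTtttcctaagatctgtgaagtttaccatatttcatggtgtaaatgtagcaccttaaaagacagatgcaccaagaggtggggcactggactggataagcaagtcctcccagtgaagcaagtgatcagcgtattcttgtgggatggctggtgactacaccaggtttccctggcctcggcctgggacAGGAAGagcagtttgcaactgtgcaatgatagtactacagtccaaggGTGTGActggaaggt
The Fcer1g window held 1 RUNX and 2 ETS matches, the Klra1 window 1 match of each kind, and the Klra7 window 1 ETS match. The Klra5 and Klra3 windows held none of these letters. Of 32851 promoters of that length, 16.8% held the RUNX letters, 14.5% the T-box letters and 35.4% the ETS letters, so matches of this kind are common and describe the windows only. In end-to-end pairwise alignment the 4 Klra windows were 48.2% to 55.5% identical to each other, and 45.7% to 49.2% identical to Fcer1g. Identity was counted over all columns, gaps included, so similar stretches at different offsets score low. The Klra5 window, for example, opens with a stretch that the Klra3 window holds further in, nearly unchanged. The values therefore do not measure how alike the promoters are. For Klra7 a further start exists in RefSeq, at the 5′ end of the gene, and was not aligned. The Klra7 window shown lies inside the gene.

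The Tyrobp/Fcer1g lymphocytes with a CD3 transcript held 187649 UMIs (median 1430 per cell), those without one 22527 (median 1284), and the matched lymphocytes 591940 (median 1274.5). Levels are UMIs summed over the cells of a class, per 1000000 (CPM), with exact 95% intervals that cover counting error only, not differences between animals. A phagocyte background of 372 cells (at least 3 UMIs of the 4 phagocyte genes, 0 CD3 UMIs and fewer than 3 cytotoxic UMIs; median 2247.5) gives the levels of the same genes in cells that use both adaptors. The 2 libraries shared 3 barcodes, and 0 of the 132 Tyrobp/Fcer1g lymphocytes had such a barcode.

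The adaptor levels that chose the cells are given as a description. Tyrobp (chromosome 7, 30413760 to 30417585) had 379 UMIs in the Tyrobp/Fcer1g lymphocytes with a CD3 transcript, or 2020 CPM, and 82 UMIs in those without, or 3640 CPM. Fcer1g (chromosome 1, 171229572 to 171234365) had 351 UMIs or 1871 CPM with a CD3 transcript and 48 UMIs or 2131 CPM without. Both adaptors were seen in 65 of the 132 cells (49.2%), Tyrobp alone in 30 and Fcer1g alone in 37. Tyrobp stood at 97.7% and Fcer1g at 139% of their phagocyte levels in the cells with a CD3 transcript. Of 8 other phagocyte genes, 6 stood between 0.675% and 1.42% of the phagocyte level in the same cells, against 0.373% to 1.51% in matched lymphocytes, among them Cst3 at 1.42%, against 1.51%, and Lyz2 at 0.787%, against 0.686%. Ctss stood at 5.19%, against 2.35%, and Ifi30 at 6.65%, against 2.63%, on 7 and 8 UMIs in the Tyrobp/Fcer1g lymphocytes.

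Over all 531 lymphocytes with a CD3 transcript, the 117 and the 414 together, the 2 adaptors had 3.88 UMIs per UMI of Cst3 (3.30 to 4.58), against 0.211 (0.203 to 0.219) in phagocytes. The 531 cells were not chosen by their adaptor UMIs but had 0 UMIs of the 4 phagocyte genes by the rule. Of their 730 adaptor UMIs, 636 came from the 56 cells with 4 or more. In the 453 cells with 0 or 1 adaptor UMI, the value was 0.236 per UMI of Cst3 (0.162 to 0.337). In the cells with exactly 1 it was 1.95 (1.11 to 3.53). Both sets are cut by the adaptor UMIs themselves, so their values follow from the cut and cannot be read against that of phagocytes. Of the 117 cells, 39 had only 1 adaptor UMI, and the part of free RNA in these UMIs was not tested.

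**Figure D1:**
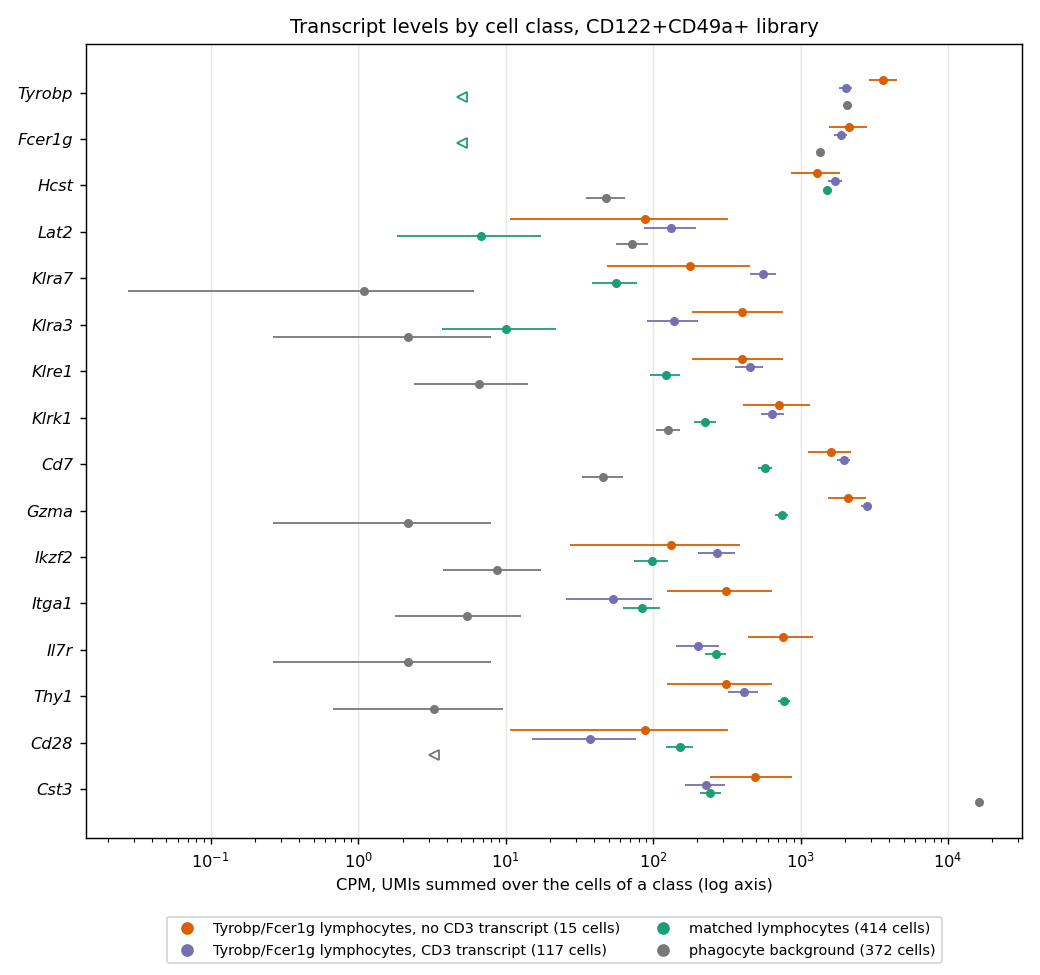
Levels of 16 genes in Tyrobp/Fcer1g lymphocytes without a CD3 transcript (orange), Tyrobp/Fcer1g lymphocytes with one (purple), matched lymphocytes (green) and the phagocyte background (grey); the horizontal axis is CPM on a log scale, lines are 95% counting intervals, and an open triangle is the floor of 3 counts where no UMI was seen. Klre1, Cd7 and Gzma are above the matched lymphocytes in both Tyrobp/Fcer1g classes, and Cst3 is near the matched level when a CD3 transcript is present, at 229 CPM against 245 CPM.

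The cells just inside and outside each limit were as follows. The 41 cells with exactly 1 adaptor UMI had a CD3 transcript in 95.1% and 609 CPM over the Ly49 genes; the 426 cells with 0 adaptor UMIs had a CD3 transcript in 97.2% and 128 CPM. The 39 cells with 1 UMI of the phagocyte genes, left out by the rule, had 1278 CPM over the Ly49 genes, and the 132 included cells 1247 CPM. Only 2 cells had exactly 3 cytotoxic UMIs and 2 further cells with an adaptor UMI had exactly 2.

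The main comparison asked what else differs between lymphocytes with a CD3 transcript that carry adaptor transcripts and those that carry none. The Tyrobp/Fcer1g lymphocytes with a CD3 transcript had more Ly49 and NKG2 family receptor transcripts, more Cd7, S100a6 and Gzma, and less of the T cell coreceptors and costimulatory receptors Cd4, Cd8b1 and Cd28. Of the 1210 genes with at least 20 UMIs in both classes together and a mean of at least 100 CPM, 18 (1.49%) were at least 2-fold higher and 25 (2.07%) at least 2-fold lower, with the genes of the rule left out. The median log2 ratio of all 1210 genes was -0.04. A gene that reached these limits only where it is abundant had to differ, so counts of list members past 2-fold are descriptions, read beside these shares.

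Ly49 receptors stood furthest apart as a group. Summed over 11 genes they reached 1311 CPM in the Tyrobp/Fcer1g lymphocytes with a CD3 transcript and 130 CPM in matched lymphocytes, a ratio of 10.1 (7.77 to 13.2). A UMI of any Ly49 gene was seen in 70 of 117 cells (59.8%, 50.4 to 68.8), against 36 of 414 (8.70%, 6.16 to 11.8), and UMIs of at least 2 Ly49 genes in 30 cells (25.6%), against 8 (1.93%). The phagocyte background, which also transcribes the family members Klra2 and Klra17, stood at 9.41%. With each cell thinned to 1000 UMIs, which kept 97 and 336 cells and left out 20 and 78, the shares were 53.6% (43.2 to 63.8), against 7.44% (4.87 to 10.8), and 4.28% in phagocytes. Both Ly49 genes that met the limits, Klra1 and Klra7, were at least 2-fold higher. In matched lymphocytes they had 32.1 and 55.7 CPM, so they reached the mean of 100 CPM through the class where they are high. They had to differ, and their count is a description. The other 9 fell short of the UMI or CPM limit.

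By gene, the Ly49 levels were uneven. Klra7 (Ly49G) had 105 UMIs in 41 of the 117 Tyrobp/Fcer1g lymphocytes, or 560 CPM, against 33 UMIs in 18 of 414 matched cells, or 55.7 CPM, a ratio of 10.0 (6.73 to 15.3). Klra1 (Ly49A), an inhibitory receptor, had 40 UMIs in 16 cells, or 213 CPM, against 19 UMIs in 10 cells, or 32.1 CPM, a ratio of 6.64 (3.76 to 12.1). That Klra1 ratio was 0.489 with a minimum of 1000 genes per cell, which leaves 8 of the 117 cells. Both genes were seen in a minority of cells. Klra3 (Ly49C) had 26 UMIs in 15 cells, against 6 UMIs in 3 cells, a ratio of 13.7 (5.50 to 40.6). Klra5 (Ly49E) had 29 UMIs in 13 cells, against 1 UMI in 1 cell, a ratio of 91.5 (15.2 to 3736) whose width follows from that single UMI. Klra9 and Klra6 had ratios of 7.01 (3.05 to 17.5) and 5.61 (2.33 to 14.4). All 7 UMIs of Klra4, a receptor that signals through DAP12, came from 1 cell, as did all 3 of Klra8, and both genes had 0 UMIs in matched cells. The Ly49 genes are close copies of each other, so reads could be shared out differently between them, and the values of single members are less certain than their sum.

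NKG2, NKR-P1 and other NK receptors, without the rule genes Klrd1 and Ncr1, summed to 4631 CPM in the Tyrobp/Fcer1g lymphocytes with a CD3 transcript and 2201 CPM in matched lymphocytes, a ratio of 2.10 (1.93 to 2.29). Of 9 members that met the limits, 4 were at least 2-fold higher and 0 lower. Klrk1 (NKG2D, the receptor for stress-induced ligands) reached 645 CPM in 59 of 117 cells, against 226 CPM in 84 of 414, a ratio of 2.85 (2.21 to 3.67). The list's median log2 ratio was 0.72, against -0.04 over all genes compared. Klre1, a lectin-like receptor of NK cells, reached 453 CPM, against 122 CPM, a ratio of 3.72 (2.69 to 5.17). Klrc2 (NKG2C), a DAP12-coupled receptor, had a ratio of 2.83 (1.83 to 4.36). Cd7, a receptor of early and NK-type lymphocytes, reached 1966 CPM in 85 of 117 cells, against 576 CPM in 158 of 414, a ratio of 3.41 (2.94 to 3.97). At 1000 UMIs per cell, Cd7 was seen in 64.9% of cells, against 30.4%, and Klrk1 in 43.3%, against 16.4%, where phagocytes stood at 10.7%. Cd160, an NK and T cell receptor, had a ratio of 1.5 (1.15 to 1.93), and Klrb1c, the NK1.1 antigen of this strain, one of 0.974 (0.596 to 1.54).

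These receptors are encoded next to each other on chromosome 6. Between 128609227 and 131247362, from Klrb1a to Klra2, lie 43 protein-coding genes, of which 15 outside the rule had at least 20 UMIs in both classes together. Of these, 10 were at least 2-fold higher in the Tyrobp/Fcer1g lymphocytes and 0 lower, with a median log2 ratio of 1.51. Of all 4463 protein-coding genes with that many UMIs, 2.55% were at least 2-fold higher, and their median was -0.11. Klra5, Klra3, Klra6 and Klra9 had only 1, 6, 9 and 9 UMIs in matched lymphocytes. They reached the 20 UMIs through the class where they are high, and so had to differ. The count and the median of the stretch are therefore descriptions. The stretch was not uniform. The genes at its Klrb1 end, Klrb1c, Clec2i, Klrb1f and Clec2d, had ratios of 0.974, 0.537, 0.601 and 0.973. From Cd69, an early activation antigen that retains lymphocytes in tissue (ratio 2.73, 1.84 to 4.04), through Klre1 and the NKG2 genes to the Ly49 genes, ratios ran from 1.65 for Klrc1 upward.

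**Figure D2:**
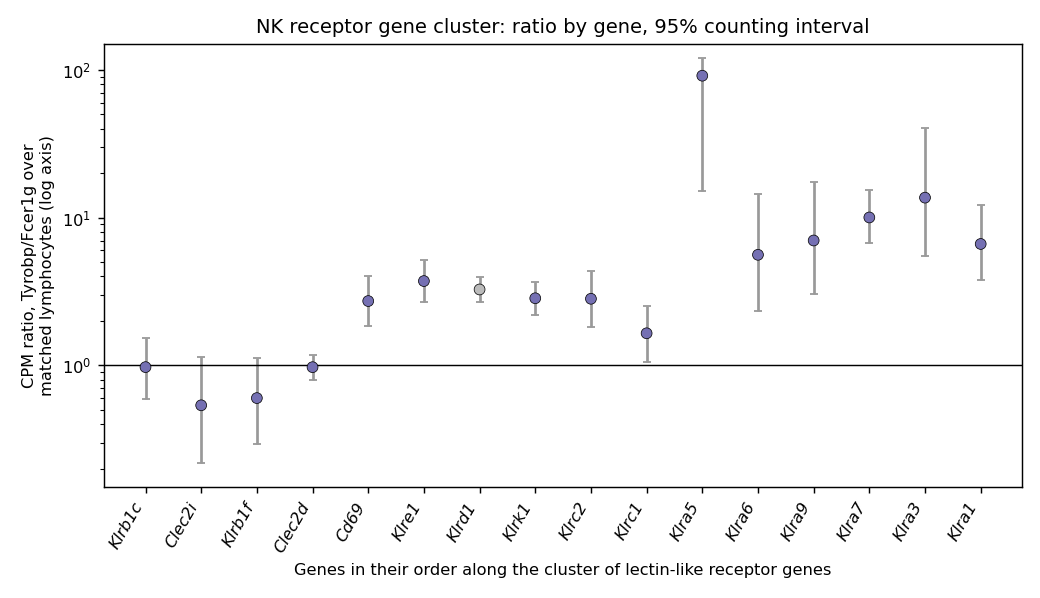
CPM ratio of Tyrobp/Fcer1g lymphocytes with a CD3 transcript over matched lymphocytes (vertical log axis) for 16 genes in their order along the receptor gene cluster of chromosome 6, with 95% counting intervals; the grey point is Klrd1, a gene of the rule, and the upper end of the Klra5 interval is clipped at 120. The 4 genes on the left have ratios at or below 1 and all 6 Klra genes on the right lie above 5.

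Among adaptors and receptor-proximal signalling genes, the T cell linker Lat and its relative Lat2 (NTAL, the linker of B, NK and myeloid cells) differed in opposite directions. Lat2 had 25 UMIs in 21 of 117 Tyrobp/Fcer1g lymphocytes, or 133 CPM, against 4 UMIs in 3 of 414 matched cells, or 6.76 CPM, a ratio of 19.7 (6.81 to 77.9). Phagocytes had 72.2 CPM of Lat2, less than the Tyrobp/Fcer1g lymphocytes. Lat had 149 CPM, against 318 CPM, a ratio of 0.470 (0.304 to 0.701). Zap70, a kinase of the T cell receptor pathway, had a ratio of 0.580 (0.390 to 0.839), and Txk one of 1.14 (0.862 to 1.49). Hcst (DAP10), the other adaptor of NKG2D, reached 1721 CPM, against 1507 CPM, a ratio of 1.14 (1.0 to 1.30). Of the 11 genes of this list that met the limits, 0 were at least 2-fold higher and 1, Lat, was at least 2-fold lower; the list's median log2 ratio was -0.51.

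The T cell markers other than the CD3 chains summed to 1604 CPM in the Tyrobp/Fcer1g lymphocytes with a CD3 transcript and 2968 CPM in matched lymphocytes, a ratio of 0.540 (0.477 to 0.611). Of 8 members that met the limits, 0 were at least 2-fold higher and 3 lower, namely Cd8b1, Bcl11b and Lat, and the list's median log2 ratio was -0.85. Cd4 had 0 UMIs in 117 cells, which allows a share of up to 3.10%, against 60 UMIs in 47 of 414 cells (11.4%). Against a floor of 3 counts in the class, Cd4 was at least 6.34-fold lower. Cd28, the costimulatory receptor, had 37.3 CPM, against 152 CPM, a ratio of 0.245 (0.0959 to 0.527), and Bcl11b, a T cell commitment factor, had a ratio of 0.457 (0.278 to 0.717). Thy1 had 410 CPM, against 775 CPM, a ratio of 0.529 (0.410 to 0.675). Of the CD3 chains, of which each cell had to show a UMI, Cd3d and Cd3g differed little, with ratios of 1.03 (0.892 to 1.18) and 1.07 (0.926 to 1.24), and Cd3e had a ratio of 0.744 (0.590 to 0.931).

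A Cd8a or Cd8b1 UMI was seen in 24 of the 117 cells (20.5%, 13.6 to 29.0), against 69 of 414 (16.7%, 13.2 to 20.6), and neither a Cd8 nor a Cd4 UMI in 93 (79.5%), against 298 (72.0%). The chains were unequal: Cd8a had 117 CPM, against 99.7 CPM, with a ratio of 1.18 (0.686 to 1.95), and Cd8b1 79.9 CPM, against 209.5 CPM, with a ratio of 0.382 (0.207 to 0.654).

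Split by Cd8 transcripts, a division made after the values were seen, the Ly49 difference appeared on both sides while the summed Gzma levels lay in opposite directions. Among cells with a Cd8 UMI, Ly49 genes summed to 1275 CPM (943 to 1686) in 24 Tyrobp/Fcer1g lymphocytes and 47.1 CPM (15.3 to 110) in 69 matched cells. Among cells without, they summed to 1320 CPM (1142 to 1518) in 93 Tyrobp/Fcer1g lymphocytes and 148 CPM (116 to 187) in 345 matched cells. Gzma (granzyme A) reached 1353 CPM (1011 to 1775) in Cd8 Tyrobp/Fcer1g lymphocytes and 3304 CPM (2967 to 3668) in Cd8 matched cells, but 3197 CPM (2916 to 3497) and 183 CPM (147 to 225) in those without Cd8. With Cd8, the Gzma UMIs came from 4 of 24 Tyrobp/Fcer1g lymphocytes (16.7%, 4.74 to 37.4), against 25 of 69 matched cells (36.2%, 25.0 to 48.7), shares whose intervals overlap. Without Cd8, they came from 35 of 93 cells (37.6%, 27.8 to 48.3), against 13 of 345 (3.77%, 2.02 to 6.36). The other granule proteins lay closer together, with 1717 CPM (1328 to 2185) in Cd8 Tyrobp/Fcer1g lymphocytes against 1657 CPM (1421 to 1920) in Cd8 matched cells, and 1642 CPM (1443 to 1861) against 1851 CPM (1732 to 1976) without Cd8. Cd7 was higher in Tyrobp/Fcer1g lymphocytes on both sides, at 1796 CPM against 386 CPM with Cd8 and 2010 CPM against 618 CPM without. S100a6 was too, at 6115 CPM against 4537 CPM with Cd8 and 4470 CPM against 900 CPM without. Without Cd8, Itgax had 147 CPM against 12.4 CPM, Cd69 308 CPM against 88.5 CPM and Maf 154 CPM against 441 CPM. With Cd8 their values were 78.1 against 65.9 CPM, 130 against 151 CPM and 52.0 against 28.2 CPM. These last values rest on 2 to 16 UMIs each, and their intervals overlap. NKG2 and related receptors, Lat2 and Ikzf2 differed in the same direction on both sides.

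Over all cells, granule proteins outside the rule summed to 4476 CPM in Tyrobp/Fcer1g lymphocytes with a CD3 transcript and 2559 CPM in matched lymphocytes, a ratio of 1.75 (1.61 to 1.90), and the list's median log2 ratio over its 3 members that met the limits was -0.14. Gzma alone passed 2-fold, and the sum's direction rests on it: the other 11 genes had 311 UMIs or 1657 CPM, against 1075 UMIs or 1816 CPM, a ratio of 0.913 (0.802 to 1.04). Gzma had 529 UMIs in 39 of 117 cells (33.3%), against 440 UMIs in 38 of 414 cells (9.18%), a ratio of 3.79 (3.34 to 4.31), so it was abundant in some cells and not seen in most. Gzmb, a gene of the rule, had 1044 CPM, against 230 CPM, and is given as description. Prf1 (perforin) had 3 UMIs in 3 cells, against 6 UMIs in 6 cells. Srgn, the granule proteoglycan, had a ratio of 0.854 (0.697 to 1.04).

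Among the other genes named by rule, S100a6, a calcium-binding protein, had 4807 CPM in 88 of 117 Tyrobp/Fcer1g lymphocytes, against 1553 CPM in 182 of 414 matched cells, a ratio of 3.10 (2.82 to 3.40). Itgax (CD11c), an integrin of dendritic cells and of some cytotoxic lymphocytes, had 133 CPM, against 22 CPM, a ratio of 6.07 (2.99 to 12.9), with 247 CPM in phagocytes. The chemokine Ccl4 had 240 CPM, against 45.6 CPM, a ratio of 5.26 (3.19 to 8.81), and Spry2, a feedback inhibitor of growth factor signalling, one of 4.34 (2.49 to 7.67). On the lower side, besides Cd4 and Cd28, Satb1, a chromatin organiser of T cells, had a ratio of 0.213 (0.0760 to 0.481), P2rx7, an ATP receptor, 0.221 (0.0866 to 0.472), and the cytokine Il4 0.256 (0.0909 to 0.584). Podnl1, Bcl2a1b, Stk24, Adam19 and Pde3b had ratios between 0.257 and 0.305.

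Transcription factors summed to 2569 CPM in the Tyrobp/Fcer1g lymphocytes with a CD3 transcript and 3311 CPM in matched lymphocytes, with a ratio of 0.776 (0.701 to 0.857). Of 9 that met the limits, Ikzf2 was at least 2-fold higher and Maf at least 2-fold lower, and the median log2 ratio was -0.66. Ikzf2 (Helios), a factor of regulatory and some unconventional T cells, had 272 CPM, against 98.0 CPM, a ratio of 2.77 (1.87 to 4.11). Maf had 133 CPM, against 367 CPM, a ratio of 0.363 (0.230 to 0.551). Runx3, a factor of cytotoxic lymphocytes, had a ratio of 1.84 (1.31 to 2.57). Tbx21 (T-bet) had 79.9 CPM, against 135 CPM, a ratio of 0.591 (0.316 to 1.03), and Eomes, the T-box factor of circulating NK cells, had 10 UMIs in 4 of 117 cells, against 3 UMIs in 2 of 414. The gamma delta T and NKT markers summed to 85.3 CPM, against 258 CPM, a ratio of 0.330 (0.184 to 0.553), without the 4 T cell receptor genes of that list, which were not analysed here.

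**Figure D3:**
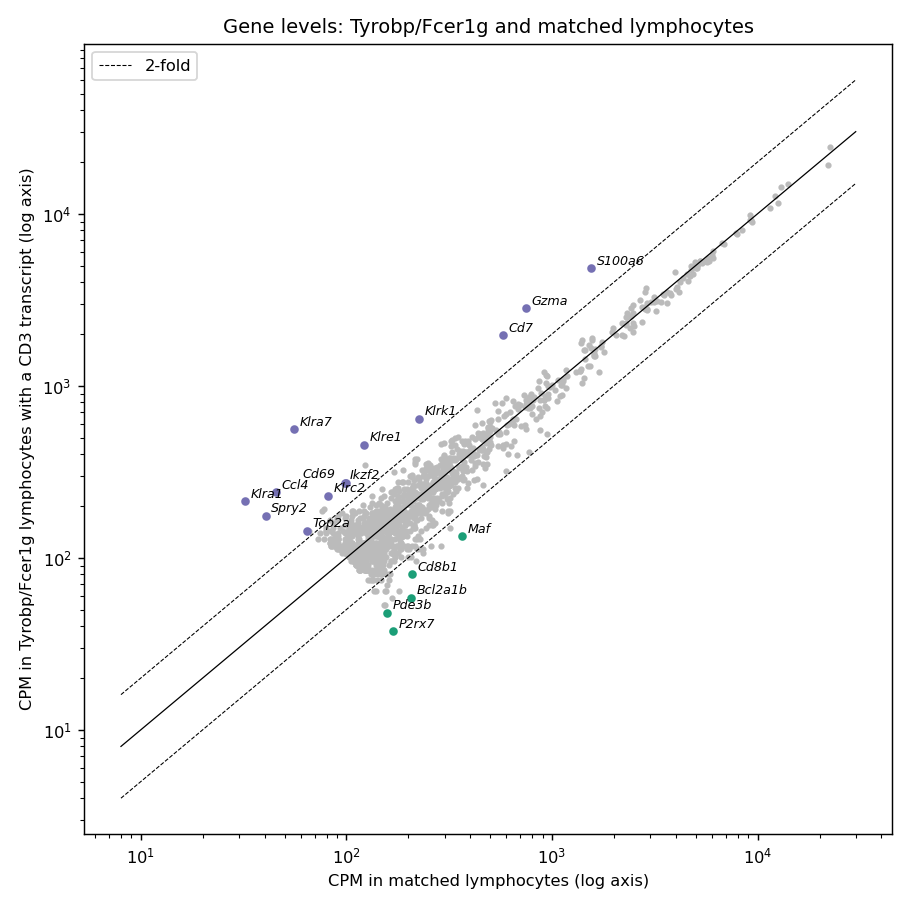
CPM of 1210 genes in Tyrobp/Fcer1g lymphocytes with a CD3 transcript (vertical, log axis) against matched lymphocytes (horizontal, log axis); dashed lines mark 2-fold either way, and the labelled genes are named ones that met the limits, in purple where higher and green where lower. Most genes lie between the dashed lines, and Klra7, Klra1, Ccl4, Spry2 and Gzma lie furthest above them.

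The label calls the cells innate-like, and the levels of its markers outside the rule are given here. They were chosen with earlier results of these data known, so they describe the cells and do not test the name. Lat2 and Klra3 were higher, as given above. Itga1, which encodes the sorted CD49a (chromosome 13, 114953096 to 115101964), was not: it had 10 UMIs in 10 of the 117 Tyrobp/Fcer1g lymphocytes with a CD3 transcript, or 53.3 CPM, against 50 UMIs in 41 of 414 matched cells, or 84.5 CPM, a ratio of 0.631 (0.285 to 1.26). The liver ILC1 markers as a whole summed to 1471 CPM, against 1595 CPM, a ratio of 0.922 (0.804 to 1.06), and the circulating NK cell markers to 666 CPM, against 622 CPM, a ratio of 1.07 (0.868 to 1.32). Ncr1 (NKp46), which defines NK cells and ILC1 and belongs to the rule, was seen in 5 of 117 cells, against 1 of 414. Each of the 117 cells has a CD3 transcript, so they are described by their rule and not named as ILC1 or NK cells.

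Within the lymphocytes with a CD3 transcript, the levels followed the number of adaptor UMIs, over bins set after the values were seen. In cells with 0, 1, 2 to 3 and 4 or more adaptor UMIs (414, 39, 22 and 56 cells, with median depths of 1274.5, 1383, 1615.5 and 1463.5 UMIs), the Ly49 genes summed to 130, 630, 1164 and 1809 CPM. NKG2 and related receptors summed to 2201, 2800, 3913 and 6114 CPM, and Cd7 had 576, 647, 1387 and 3063 CPM. T cell markers other than CD3 chains summed to 2968, 2100, 1709 and 1243 CPM, and Maf had 367, 297, 99.1 and 44.4 CPM. Granule proteins had no such order, with 2559, 3115, 2130 and 6392 CPM, or 1816, 1452, 1461 and 1875 CPM without Gzma, and the phagocyte markers had none either, with 737, 1172, 768 and 976 CPM. The CD3 chains were level, at 3298, 3290, 3145 and 3273 CPM, and Itga1 had 84.5, 17.5, 99.1 and 55.5 CPM on 50, 1, 4 and 5 UMIs.

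**Figure D4:**
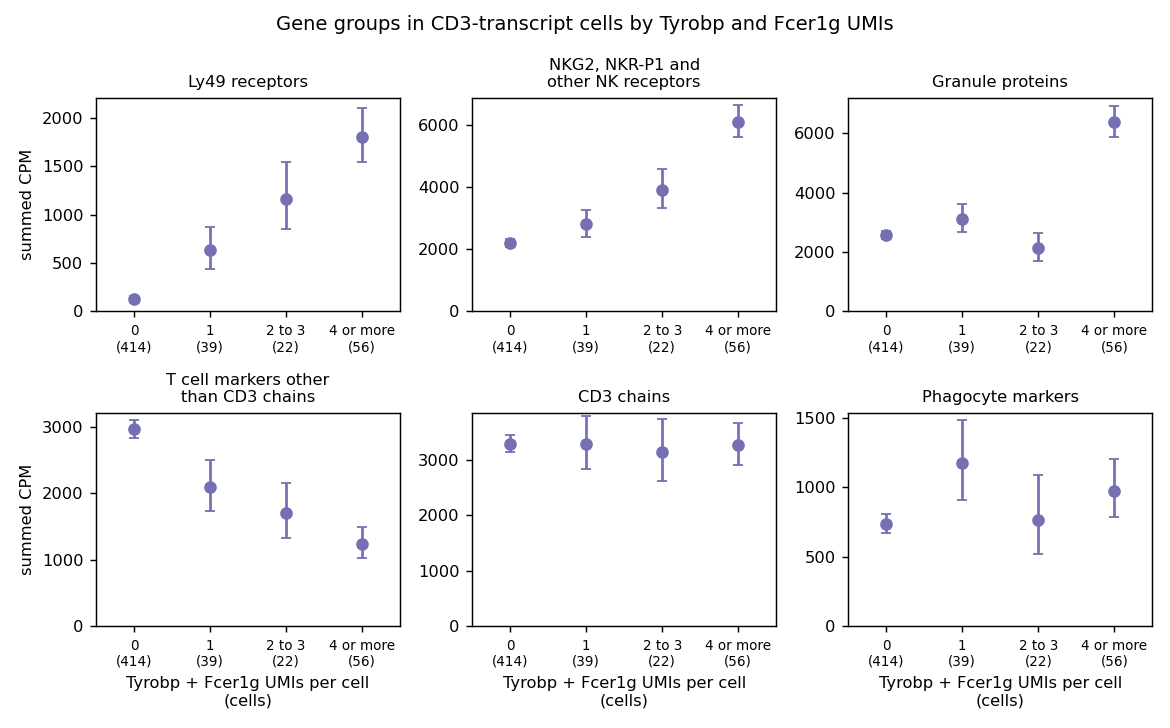
Summed CPM (vertical axes, from 0) of 6 gene groups in cells with a CD3 transcript, binned by Tyrobp and Fcer1g UMIs per cell (horizontal axes, number of cells in brackets), with 95% counting intervals; the bin 0 is the matched lymphocytes. Ly49 and NKG2 receptors climb from bin to bin, T cell markers decline, and CD3 chains stay between 3145 and 3298 CPM.

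The adaptor seen also divided the cells. Those with both adaptors (54 cells) had 1723 CPM (1456 to 2025) of Ly49 genes, those with Fcer1g alone (36 cells) 1278 CPM (1011 to 1592) and those with Tyrobp alone (27 cells) 494 CPM (302 to 763). A Ly49 UMI was seen in 75.9%, 63.9% and 22.2% of these cells, at median depths of 1447, 1447.5 and 1383 UMIs. S100a6 followed the same order, with 6764, 4140 and 1703 CPM. Tyrobp is the more abundant adaptor in phagocytes, at 2066 CPM against 1346 CPM of Fcer1g there, and the phagocyte markers stood at 903, 1213 and 839 CPM in the 3 sets.

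Phagocyte markers outside the rule summed to 991 CPM in Tyrobp/Fcer1g lymphocytes with a CD3 transcript and 737 CPM in matched lymphocytes, a ratio of 1.35 (1.13 to 1.60), and to 51481 CPM in the phagocyte background. No phagocyte marker UMI at all was seen in 38 of 117 cells (32.5%), against 174 of 414 (42.0%). Lgals3, a galectin that activated lymphocytes also express, gave 70 of the marker UMIs and had a ratio of 1.73 (1.27 to 2.33), while Cst3 had 0.935 (0.650 to 1.32) and Cd74 1.21 (0.769 to 1.87). Ctss and Ifi30, enzymes of antigen processing, had ratios of 2.21 (0.713 to 6.43) and 2.52 (0.866 to 7.10). Restricted to cells without any phagocyte marker UMI, an alternative added after the data were seen, the Ly49 ratio was 13.4 and the T cell marker ratio 0.620. Kupffer cell and basophil markers had 0 UMIs in the 132 cells, and B and plasma cell markers 1 UMI in each of the 2 CD3 classes.

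The 15 Tyrobp/Fcer1g lymphocytes without a CD3 transcript made up 11.4% (6.5 to 18.0) of the 132 cells. Among all cells without adaptor UMIs under the same limits, 12 of 426 (2.82%, 1.46 to 4.87) showed no CD3 transcript. Compared with the 117 cells with a CD3 transcript, the 15 cells had more transcripts of the ILC1 markers. Of the gamma delta T and NKT markers they had more only through Rora and Il4. They had fewer Ly49 transcripts, at NKG2 receptor levels that the counts could not tell apart. The gamma delta T and NKT markers had a ratio of 7.29 (3.29 to 15.9), on 14 UMIs in 5 cells, against 16 UMIs in 11 cells. All 14 UMIs were of Rora or Il4, with 42.9% in 1 cell. The other 4 genes summed had 0 UMIs in the 15 cells, and no gene of the list met the limits in this comparison. A gene with 3 UMIs in them already stands at 133 CPM, so single genes are coarse. Of 1114 genes compared, 100 (8.98%) were at least 2-fold higher than with a CD3 transcript and 78 (7.0%) lower. Against matched lymphocytes, 226 of 1334 genes (16.9%) were at least 2-fold higher and 76 (5.7%) lower. With totals that leave out mitochondrial, ribosomal protein and rule genes, 87 genes were higher and 171 lower than with a CD3 transcript, and 338 higher and 241 lower than in matched lymphocytes.

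The liver ILC1 markers summed to 3107 CPM in the 15 cells, 1471 CPM in the Tyrobp/Fcer1g lymphocytes with a CD3 transcript and 1595 CPM in matched lymphocytes. The ratio was 2.11 (1.60 to 2.76) over the CD3 class and 1.95 (1.51 to 2.49) over the matched lymphocytes. Il7r, the interleukin-7 receptor that liver ILC1 carry, had 17 UMIs in 7 of 15 cells, or 755 CPM, against 38 UMIs in 23 of 117 cells, or 203 CPM, a ratio of 3.73 (1.97 to 6.76). Itga1 had 7 UMIs in 5 of 15 cells, or 311 CPM, against 53.3 CPM with a CD3 transcript, a ratio of 5.83 (1.88 to 17). Rgs2, a regulator of G protein signalling, had 12 UMIs in 7 cells and a ratio of 5.55 (2.44 to 12.2). Rora, a factor of innate lymphoid cells and some T cells, had 8 UMIs in 4 cells and a ratio of 11.1 (3.38 to 38.8), with 5 of the 8 UMIs in 1 cell. Tmem176b had 7 UMIs in 2 cells, and Cxcr6, a chemokine receptor of liver-resident lymphocytes, had 222 CPM in the 15 cells, against 224 CPM. Of 5 ILC1 markers that met the limits over the CD3 class, 2 were at least 2-fold higher, Il7r and Rgs2, and 0 lower, with a median log2 ratio of 0.60 against 0.08 over all genes compared.

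Ly49 genes summed to 710 CPM in the 15 cells, on 16 UMIs in 5 cells, against 1311 CPM with a CD3 transcript, a ratio of 0.542 (0.305 to 0.898), and against 130 CPM in matched lymphocytes, a ratio of 5.46 (2.97 to 9.44). Klra3 supplied 9 of these UMIs, in 3 cells, and Klra7 had 4 UMIs in 3 cells. The ratio over the CD3 class was 3.20 between cells without a phagocyte marker UMI, of which 2 are among the 15. NKG2 and related receptors had ratios of 1.04 (0.840 to 1.27) over the CD3 class and 2.18 (1.77 to 2.65) over matched lymphocytes. Among them Klrb1f, a receptor of the NKR-P1 family, had 10 UMIs in 5 cells and a ratio of 6.94 (2.69 to 17.5) over the CD3 class, and Cd7 one of 0.813 (0.560 to 1.15).

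Summed T cell transcripts were lower in the 15 cells than in matched lymphocytes, but were present. The T cell markers other than CD3 chains summed to a ratio of 0.494 (0.339 to 0.696) over matched lymphocytes and 0.913 (0.617 to 1.31) over the CD3 class. Of 8 members that met the limits over matched lymphocytes, Tcf7 was at least 2-fold higher. Thy1 and Lat, the latter at the floor, were at least 2-fold lower. Over all genes compared, 16.9% were higher and 5.7% lower. The list's median log2 ratio was -0.75. Tcf7 was also at least 2-fold higher over the CD3 class. Lat, Cd247, Cd5, Cd6, Cd8a and Cd8b1 had 0 UMIs. By the exact interval each allows up to 164 CPM, a level above what the CD3 class shows for any of them. Zap70 had 6 UMIs in 5 cells, Thy1 7 UMIs in 5 cells, Tcf7 7 UMIs in 6 cells, and Cd4 2 UMIs in 1 cell. A cell can miss its CD3 transcripts by depth, so the class may still hold cells with CD3.

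Some leading genes of the 15 cells rested on very few of them. Gzmc (granzyme C) had 34 UMIs in 3 cells, 52.9% of them in 1, or 1509 CPM, against 12 UMIs in 3 of 117 cells, a ratio of 23.6 (11.9 to 50.1). Ccl4 had 29 UMIs with 86.2% in 1 cell, and its ratio over the CD3 class was 5.37 (3.25 to 8.75) with that cell and 0.955 when the cell with most Ccl4 UMIs was left out of each class. Lcp1, an actin-bundling protein of leukocytes, was spread over 13 of the 15 cells and had 27 UMIs, or 1199 CPM, against 581 CPM, a ratio of 2.06 (1.30 to 3.17), and Ahnak over 11 cells with a ratio of 1.95 (1.22 to 3.01). S100a4 had 33 UMIs, 51.5% of them in 1 cell, and a ratio of 1.72 (1.14 to 2.51) over the CD3 class, which was 0.975 (0.543 to 1.64) when the cell with most S100a4 UMIs was left out of each class. Tspo, Myl12a, Rgs1, H3f3a and Sec61b had ratios between 1.49 and 1.77. Against matched lymphocytes, Gzma, Cd7 and S100a6 had ratios of 2.81 (2.03 to 3.80), 2.77 (1.91 to 3.92) and 2.63 (2.10 to 3.26), with the Gzma UMIs in 3 cells. The genes that ranked lowest had 1 UMI each in the 15 cells; of these Ms4a6b, a membrane protein of T cells, had a ratio of 0.0966 (0.00244 to 0.543) over matched lymphocytes and 0.167 (0.00414 to 0.972) over the CD3 class, and Polr1d and Atp5a1 had ratios of 0.174 (0.00431 to 1.01) and 0.198 (0.00491 to 1.17) over the CD3 class.

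**Figure D5:**
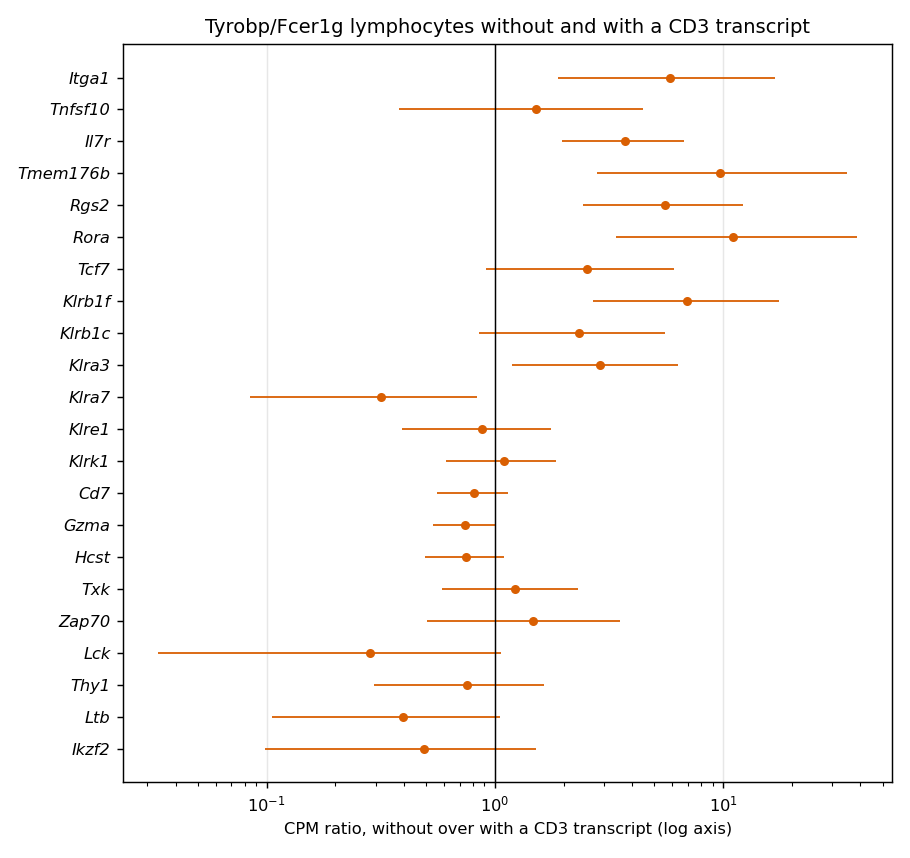
CPM ratio of the 15 Tyrobp/Fcer1g lymphocytes without over the 117 with a CD3 transcript (horizontal log axis) for 22 named genes, with 95% counting intervals; the vertical line marks a ratio of 1. Itga1, Il7r, Tmem176b, Rgs2, Rora, Klrb1f and Klra3 lie above 1 with their intervals, and Klra7 lies below it.

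The phagocyte markers outside the rule were also higher in the 15 cells, with a ratio of 1.81 (1.21 to 2.62) over matched lymphocytes and 1.34 (0.882 to 1.98) over the CD3 class. A phagocyte marker UMI was missing in 2 of the 15 cells. Cst3 stood at 3.02% of its phagocyte level, against 1.51% in matched lymphocytes, while Ctss and Ifi30 had 0 UMIs. Cd74 and H2-Eb1 had ratios of 3.37 (1.55 to 6.53) and 3.39 (0.870 to 9.59) over matched lymphocytes, and Cst3 and Cd74 had 2.13 (0.991 to 4.20) and 2.78 (1.21 to 5.84) over the CD3 class, with 60% of the 10 Cd74 UMIs in 1 cell. The dendritic cell markers, 13 UMIs in 5 of the 15 cells, had ratios of 3.08 (1.59 to 5.48) over matched lymphocytes and 2.41 (1.19 to 4.54) over the CD3 class, and 8 of these UMIs were Bst2, in 2 cells. The part of phagocyte or dendritic cell RNA in the other differences of these 15 cells was not tested.

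Set against the 132 cells of the CD122+CD49a+ gate, 117 of them with a CD3 transcript, the same rule found 171 of 3065 cells (5.58%, 4.79 to 6.45) in the LSM gate, 10 of them (5.85%, 2.84 to 10.5) with a CD3 transcript. The 161 LSM cells without a CD3 transcript were deeper, with a median of 4969 UMIs, and were of another kind. The progenitor genes Cd34, Flt3 and Dntt had a UMI in 0 of 132 CD122+CD49a+ cells, which allows up to 2.76%, and in 55.9%, 48.4% and 31.1% of these LSM cells. Il2rb, which encodes the sorted CD122, is a gene of the rule and is given as description. It had a UMI in 63 of the 132 CD122+CD49a+ cells (47.7%) and in 1 of the 161 LSM cells (0.621%). Klrk1 had a UMI in 66 of 132 (50%) and in 2 of 161 (1.24%).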

How the data were processed

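The deposited files hold raw UMI counts per gene and barcode, written by software version 3.0.1 per the file headers. The submitters' processing notes list GRCm38, Seurat 2.3.0 and STAR, with no role for any of them. The sources used here do not say how barcodes were selected. Groups come from the labels. The kept cells had 500 or more genes and no more than 10% mitochondrial UMIs: 1248 CD122+CD49a+ cells (398 barcodes under the gene minimum, 9 over the mitochondrial limit) and 3065 LSM cells, from library totals of 2632303 and 16226070 UMIs. No doublets were removed: Scrublet (scanpy 1.11.5) marked 4 of 1655 barcodes (0.242%) by its own threshold, under the 0.5% needed, and removal of the 22 highest scores, 3 of them among the 132 cells, is an alternative.

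UMIs were summed per class and scaled to CPM with Poisson intervals. Ratios carry exact conditional 95% intervals, shares Clopper-Pearson intervals, and a count of 0 is set at a floor of 3 counts. Cells were thinned to 1000 UMIs to compare shares at 1 depth. Gene positions are from GENCODE M21. Of 251 genes in 22 lists, 6 had no row. For each of the 3 comparisons, the named genes are the 10 with the largest ratio each way among protein-coding genes with 100 CPM, 20 UMIs and a UMI in 10% of cells in the higher class, without mitochondrial, ribosomal, unnamed, receptor segment and rule genes, plus list members. The members and lists were chosen with earlier results of these data known. Poisson counts were simulated for the main comparison (1227 genes). There the true ratio lay inside the interval for 95.9% of genes left unchanged, for 96% at 2-fold and for 95% at 4-fold; the interval does not account for UMIs that clump in cells. Calculations used numpy 2.4.6, scipy 1.17.1, pandas 2.3.3 and Biopython 1.88.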

Additional observations from a re-analysis of the deposited data

How the results depend on the processing

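No paired analysis was possible because each gate is 1 library and no result comes from a test. With Tyrobp/Fcer1g lymphocytes with a CD3 transcript (the CD3 class) over matched lymphocytes, the summed ratios of Ly49, NKG2 and granule genes, T cell markers and phagocyte markers kept their direction under all 8 alternatives run on every list (phagocyte markers under 7); without Gzma, a choice made after the data were seen, the granule ratio reversed to 0.913. The cause of the changes below was not tested, apart from fewer cells where stated. A minimum of 1000 genes left 10 cells (8 in the CD3 class), 20% without CD3. The ratios of the CD3 class over matched cells were then 7.68 for Ly49, 2.47 for NKG2 and 2.01 for granule genes, 2.22 for phagocyte markers, 1.27 for chemokine receptors and 0.489 for Klra1, with 51 genes lower. The cells without a CD3 transcript (CD3-negative, 2 left) had ratios over matched cells of 1.32 for NKG2 and 0.642 for granule genes, 0.778 for cytokines, 4.01 for phagocyte markers and 0.575 for Gzma, with 24 genes higher. Over the CD3 class they had 0.833 for cytokines, 0.451 for chemokine receptors and 0.339 for inhibitory receptors, with 10 genes higher and 46 lower. With at least 2 adaptor UMIs, the CD3 class over matched cells had 2.47 for NKG2, 1.98 for granule genes and 0.467 for T cell markers, with 28 genes higher and 39 lower; the CD3-negative cells had 0.617 for cytokines over matched cells, and 0.605 for cytokines and 0.618 for Ccl4 over the CD3 class, with 56 genes higher. Totals without rule, mitochondrial and ribosomal genes gave 33 genes higher and 61 lower in the CD3 class over matched cells, and in the CD3-negative cells 241 lower over matched cells and 171 lower over the CD3 class. With the cell holding most UMIs of that gene or list left out of each class (added after the data were seen), the CD3-negative cells had 1.65 for granule genes and 0.696 for cytokines over matched cells, and 0.764 for cytokines, 0.955 for Ccl4 and 0.975 for S100a4 over the CD3 class. In cells without a phagocyte marker UMI (also added), the CD3 class over matched cells had 13.4 for Ly49, 1.60 for granule genes, 0.620 for T cell markers and 0.685 for cycling genes, with 60 genes higher and 80 lower; the CD3-negative cells (2 left) had 42.9 for Ly49, 2.90 for NKG2, 1.18 for granule genes and 0.323 for T cell markers over matched cells, with 550 higher and 41 lower, and 3.20 for Ly49 and 1.83 for cycling genes over the CD3 class, with 39 lower. Without a minimum CPM, 115 genes were higher and 497 lower in the CD3 class over matched cells, 1209 higher and 214 lower in the CD3-negative cells over matched cells, and 163 lower over the CD3 class. At 200 CPM these comparisons gave 7 higher and 3 lower, 59 and 22, and 49 and 28. Without thinning, Cd7 was seen in 38.2% of matched cells. Of 793 other ratios, 18 reversed and 79 moved past their interval, and 52 gave no value because a class had 0 UMIs. The 15 CD3-negative cells limit both comparisons they enter, where 1 UMI is 44.4 CPM.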

Other observations

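Cycling genes summed to 815 CPM in the Tyrobp/Fcer1g lymphocytes with a CD3 transcript and 514 CPM in matched lymphocytes, a ratio of 1.59 (1.30 to 1.93), with 26.1% of the UMIs in 1 cell; it was 0.685 between cells without a phagocyte marker UMI. At least 3 cycling UMIs were seen in 10 of 117 cells (8.55%, 4.17 to 15.2), against 17 of 414 (4.11%, 2.41 to 6.49), and in 0 of the 15 cells without a CD3 transcript. Top2a, the DNA topoisomerase of dividing cells, had 27 UMIs in 9 of 117 cells, against 38 UMIs in 12 of 414, and Stmn1, a microtubule regulator, 36 UMIs in 11 cells, against 46 UMIs in 18.

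Other gene groups lay nearer to the matched lymphocytes. Cytokines and chemokines outside the rule had a ratio of 0.941 (0.810 to 1.09). Of 4 that met the limits, Ccl4 was at least 2-fold higher and Ifng (0.491, 0.294 to 0.781) at least 2-fold lower. Over all genes compared, 1.49% were higher and 2.07% lower. Ccl4 reached the mean of 100 CPM only through the class where it is high, so it had to differ. Cytokine receptors had a ratio of 0.852 (0.735 to 0.984), chemokine receptors and residence or exit genes 0.884 (0.809 to 0.965), inhibitory receptors 1.10 (0.733 to 1.63), dendritic cell markers 1.28 (0.884 to 1.82) and immediate early genes 1.09 (0.997 to 1.19). Hepatocyte, red cell and endothelial markers had 5 UMIs in the 117 cells and 4 in the 414. In the 15 cells without a CD3 transcript, inhibitory receptors stood at a ratio of 2.81 (1.36 to 5.23) over matched lymphocytes on 11 UMIs with 45.5% in 1 cell, the gamma delta T and NKT markers at 2.40 (1.28 to 4.16) on 14 UMIs, 6 of them Il4 in 1 cell, and the transcription factors at 1.17 (0.930 to 1.45).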
